A study of Mus musculus with 6 samples.

Results

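Stefins and cystatins are small protein inhibitors of cysteine proteases, and 6 of their genes were followed among the 24454 gene IDs measured in sorted mouse leukaemic blasts. The genes were Stfa1, Stfa2, Stfa3 and Stfa2l1 of the stefin A cluster, together with Cstb (cystatin B, also called stefin B) and Cst3 (cystatin C). They were taken by name through their Entrez IDs. The family was selected on the Stat3β TG against WT difference in the normalized counts of these same libraries, in which Stfa2 was among the genes called by DESeq2 and Stfa2l1 was noted with the genes of mature neutrophils, so the difference between groups is given for the 6 genes as a description, with no test.

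RNA sequencing compared 3 libraries labelled WT with 3 labelled Stat3β TG. All 6 came from C57BL/6 fetal liver cells transformed with an MLL-AF9 retrovirus, which carries the fusion oncogene of an aggressive acute myeloid leukaemia, and grown in NSG recipients (NOD.Cg-PrkdcscidIl2rgtm1Wjl/SzJ), immunodeficient mice that lack mature T, B and NK cells but keep myeloid cells of their own. The Stat3β TG cells carried Mx1-Cre recombinase and an inducible transgene for Stat3β, the truncated isoform of STAT3, a transcription factor that cytokines activate, and the WT cells came from wild-type littermates, with no Cre named in their labels. According to the protocol all recipients received poly(I:C), 100 μL at 2 mg/mL, 4 weeks after transplantation, and blasts were sorted from bone marrow at 6 weeks. Mx1 is an interferon-responsive promoter that is not restricted to blood cells, and poly(I:C) itself induces interferon in both groups. No label gives the age of the animals, or whether the replicates came from separate donors or recipients.

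Stefin A and cystatin B have no secretion signal and act inside the cell, where they bind papain-like cathepsins tightly and reversibly and shield the cytosol from protease that escapes from lysosomes. Cystatin C is secreted, is made by most nucleated cells, and controls cathepsins outside the cell. Mice carry a cluster of stefin A copies where humans have CSTA alone, and the mouse copies are typical transcripts of maturing granulocytes in bone marrow.

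The stefin A genes of the table lie on chromosome 16 between 36119946 and 36455392 (GRCm38), a stretch of 335.4 kb that holds 10 of them. In this row stand Csta1, Stfa2l1, Cstdc4, Csta3, Csta2, Stfa1, Cstdc6, Cstdc5, Stfa2 and Stfa3, in order of position. Stfa2l1 and Stfa1 are read from the plus strand, Stfa2 and Stfa3 from the minus strand. Cstb is on chromosome 10 (78425670 to 78427622, plus strand) and Cst3 on chromosome 2 (148871722 to 148875512, minus strand). All 6 genes have 3 exons in the transcript used here.

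The bases just upstream of the annotated starts of the 4 stefin A genes are shown, from RefSeq promoter windows of GRCm38.p6. Aligned in pairs, the 4 windows were identical at 75.2% to 83.5% of positions. Each line holds the 100 bases that end at the base before the start, and capitals mark the 2 runs of at least 9 bases that all 4 windows share, AGAGGAGGAG and ACCTTTAAAACCC.
Stfa1, chr16:36277048-36277147, plus strand: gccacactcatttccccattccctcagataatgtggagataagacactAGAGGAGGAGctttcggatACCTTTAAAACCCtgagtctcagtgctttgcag
Stfa2l1, chr16:36156711-36156810, plus strand: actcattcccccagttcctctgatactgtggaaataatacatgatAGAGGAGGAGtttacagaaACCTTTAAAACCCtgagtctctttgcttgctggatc
Stfa2, chr16:36408364-36408463, minus strand: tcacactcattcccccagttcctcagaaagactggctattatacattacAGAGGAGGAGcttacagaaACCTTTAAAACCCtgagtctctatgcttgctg
Stfa3, chr16:36455393-36455492, minus strand: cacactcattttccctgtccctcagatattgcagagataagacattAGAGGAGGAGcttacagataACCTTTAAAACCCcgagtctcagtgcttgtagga

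The purine-rich run AGAGGAGGAG began at positions -55 to -51 from the start in these 4 genes, and the AT-rich run ACCTTTAAAACCC at -36 to -32. In RefSeq windows from 250 bases before to 50 after the start, searched on both strands, ACCTTTAAAACCC was in 9 of 32851 promoters (0.0274%). Of those 9, 7 were genes of this locus measured here: the 4 above and Cstdc4, Cstdc5 and Csta3. The rest were Cstdc3 and Gm7260, which were not among the locus genes listed here. Both runs were picked because the 4 windows share them, so how rare they are elsewhere is no test. Their part in the library values was not tested. AGAGGAGGAG was in 1.03% of all promoters. The letters TTCNNNGAA, which STAT factors bind, occurred in 8.30% of promoters and in none of the 4 windows. TTGCNNAA, a C/EBP-like pattern in 10.8% of promoters, was in that of Stfa1 alone of the 4. The Cst3 window, printed for contrast with its many G and C bases, held neither shared run.
Cst3, chr2:148875513-148875612, minus strand: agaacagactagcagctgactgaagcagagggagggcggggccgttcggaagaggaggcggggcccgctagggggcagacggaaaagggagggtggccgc

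The copies also resemble each other within the coding sequence, which limits how far reads can be assigned to single genes. The coding sequences of Stfa2 and Stfa2l1 matched at 301 of 312 bases (96.5%), and those of Stfa1 and Cstdc5 of the same locus at 288 of 294 (98.0%). Stfa3 stood further off, at 79.8% to Stfa1, 81.1% to Stfa2 and 81.7% to Stfa2l1. Cstb matched these 4 stefin A genes at 52.2% to 57.6%, and Cst3 matched them at 40.5% to 42.8%. The first 150 coding bases of the Stfa2 and Stfa2l1 pair, from GENCODE M21 transcripts, hold 7 of their 11 differences, shown in capitals.
Stfa2: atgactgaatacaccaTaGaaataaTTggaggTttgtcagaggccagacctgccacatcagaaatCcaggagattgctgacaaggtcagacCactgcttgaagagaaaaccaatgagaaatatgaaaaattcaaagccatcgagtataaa
Stfa2l1: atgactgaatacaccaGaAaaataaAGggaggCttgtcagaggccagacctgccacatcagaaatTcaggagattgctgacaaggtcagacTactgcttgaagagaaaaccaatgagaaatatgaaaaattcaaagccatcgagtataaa

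Of all 50-base windows in the protein-coding transcripts of Stfa2l1, 24.6% also occurred in an annotated transcript of another gene, against 22.5% for Stfa1 and 15.9% for Stfa2. For Stfa1 the copies were mostly Cstdc5 and Cstdc6, and for Stfa2 and Stfa2l1 mostly each other. At 100 bases the shares were 5.07% for Stfa1 and 0 for Stfa2 and Stfa2l1. Stfa3, Cstb and Cst3 had 0 shared windows at both lengths. No source used here says how long the reads were or how those with several matches were counted. The separate values of Stfa1, Stfa2 and Stfa2l1 are less certain than those of Stfa3, Cstb and Cst3.

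The libraries held 21809788 to 51934498 recovered reads, with Stat3β TG 1 and 3 the deepest, and the least covered of the 6 genes in any library, Cstb in WT 2, still had 510 reads. Hoxa9 and Meis1, genes that MLL-AF9 keeps on, stood at 7147 to 9288 and 2586 to 4417 normalized counts. Of the 5 blast markers tested, 3 had higher and 2 lower mean log2 levels in Stat3β TG, and 1 had no overlap between groups. This was Mecom, which peaked at 55.5 among WT libraries, below its lowest Stat3β TG value of 81.0. Cd34 ranged from 8029 to 8291 across the WT libraries, against 3726, 4999 and 8057 for Stat3β TG 1 to 3. Cd3e was at 0 in all libraries, but Cd3d reached 20.7 (Stat3β TG 1) and Cd3g 34.8 (WT 1). Stat3, whose gene-level count does not separate the β form, was at 8058, 16112 and 10879 in WT 1 to 3 and 11129, 9846 and 8034 in Stat3β TG 1 to 3, with overlap. On the first principal component (47.4% of the variance) WT 1 lay at -38.3, on the side of the Stat3β TG libraries (-31.4, -16.3 and -28.2) and beyond them, and WT 2 and WT 3 lay at 64.4 and 49.7. The sum of 4 Y-linked genes was 11012 in WT 2 and 8781 to 9465 in Stat3β TG, but 58.8 and 71.8 in WT 1 and WT 3. WT 2 was thus the WT library with a high Y-linked sum, and it was also the lowest of all libraries in every stefin A gene described and in Cstb. The part of these splits in the stefin values was not tested.

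Per length of exon, Stfa1 was the most abundant of the 6 genes and Cstb the least abundant in every library. On the scale of normalized counts per kb of exon, Stfa1 averaged 41373 ± 19292 in WT and 57521 ± 17655 in Stat3β TG (mean ± SD over 3 libraries each), and ranked 9 among 11948 tested genes with an exon length. Stfa2l1 followed at 14807 ± 4715 and 29656 ± 7856, at rank 38. Cst3 was at 12755 ± 481 and 13684 ± 1953, Stfa2 at 5753 ± 1747 and 14669 ± 4805, and Stfa3 at 5131 ± 3300 and 11652 ± 4132. Cstb was at 1784 ± 590 and 2089 ± 377, at rank 1106. The order between these extremes was not fixed: per kb, Cst3 lay above Stfa2 and Stfa3 in all 3 WT libraries and in Stat3β TG 3, but below both in Stat3β TG 1 and between them in Stat3β TG 2. Neighbours Cst3, Stfa2 and Stfa3 did not differ beyond their spread in Stat3β TG, and neither did Stfa2l1 and Cst3, or Stfa2 and Stfa3, in WT.

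**Figure D1:**
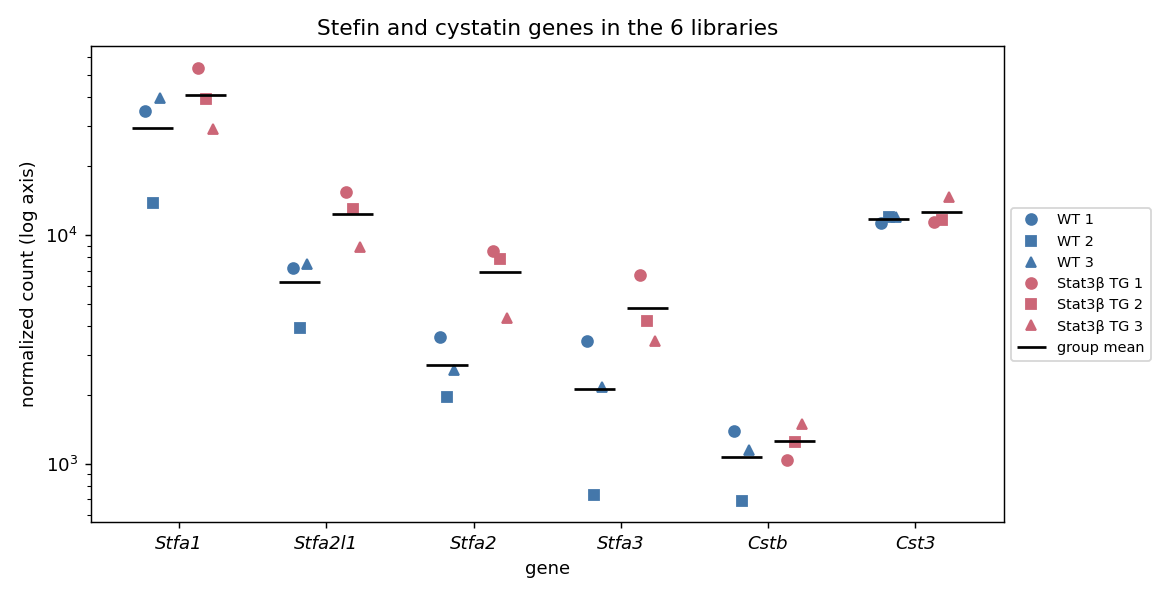
Normalized counts (log axis) of the 6 genes in the 3 WT (blue) and 3 Stat3β TG (red) libraries, with each group mean as a black line; counts are not divided by length, so groups are to be compared within a gene. WT 2 (blue square) is the lowest point for Stfa1, Stfa2l1, Stfa2, Stfa3 and Cstb, and Cst3 lies between 11237 and 14675 throughout.

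All 6 genes had higher mean log2 levels in Stat3β TG (51.4% of all tested genes did), by amounts that ranged from 0.09 for Cst3 to 1.39 for Stfa3. In 3 of the 6 the groups did not overlap, all higher in Stat3β TG, where 10.8% of the 12642 tested genes had no overlap in either direction 5.87% in this one and 4.92% in the other. The median log2 difference of the 6 was 0.80, against 0.01 over all genes tested. By limma, adjusted over all genes, 0 genes of the whole table passed, with 771 (6.1%) at an unadjusted p under 0.05. All log2 differences below are of log2(normalized count + 1), Stat3β TG minus WT, and the standard errors of single genes are from that fit.

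Stfa2, the copy called by DESeq2, stood at 3592, 1963 and 2575 normalized counts in WT 1 to 3 and at 8510, 7897 and 4320 in Stat3β TG 1 to 3. Every Stat3β TG library was above every WT library, the nearest pair being Stat3β TG 3 and WT 1, 1.20-fold apart. The means were 2710 ± 823 and 6909 ± 2263 (SD, n = 3 each), and the log2 difference was 1.33 with a standard error of 0.31, or 2.52-fold. It was 1.34 by both edgeR and DESeq2. Leaving out any 1 library gave values from 1.12 to 1.64, so that Stfa2 moved less than Stfa1 or Stfa3 did. DESeq2 called 17 of the 12642 genes (0.134%), 9 of them higher (0.0712%), while limma and edgeR called 0, so that Stfa2 was called by DESeq2 alone.

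Stfa2l1, the near-copy of Stfa2 towards the other end of the locus, was at 7172, 3931 and 7509 in WT 1 to 3 and at 15366, 13042 and 8870 in Stat3β TG 1 to 3. The groups were again apart, with Stat3β TG 3 the lowest of its group and 1.18-fold above WT 3. The means were 6204 ± 1976 and 12426 ± 3292 (SD, n = 3 each), a log2 difference of 1.02 with a standard error of 0.30. Since 50-base stretches of Stfa2 and Stfa2l1 are identical in part, whether their values are separate observations depends on the unstated read length and counting.

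Stfa3, the copy with no shared windows, had the widest spread. It was at 3446, 728 and 2168 in WT 1 to 3 and at 6715, 4231 and 3456 in Stat3β TG 1 to 3. The groups touched, since Stat3β TG 3 exceeded WT 1 by a factor of 1.003, and under quantile normalization they overlapped. The means were 2114 ± 1360 and 4801 ± 1702 (SD, n = 3 each), with a log2 difference of 1.39 and a standard error of 0.53. The log2 difference was 0.75 without WT 2 and 1.88 without WT 1. Against WT 1 alone it was 0.42, and against WT 2 alone 2.66.

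Stfa1, which held most of the reads of the 4 copies, overlapped between the groups. It was at 34710, 13813 and 39602 in WT 1 to 3 and at 53994, 39493 and 29033 in Stat3β TG 1 to 3. WT 1 and WT 3 exceeded Stat3β TG 3, and only WT 2 stood clear below. The means were 29375 ± 13697 and 40840 ± 12535 (SD, n = 3 each), and the log2 difference of 0.57 had a standard error of 0.41. It fell to 0.09 without WT 2, and was 0.34 without Stat3β TG 1 and 0.85 without WT 3.

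The sum of the 4 stefin A genes followed Stfa1, at 48919, 20435 and 51854 normalized counts in WT 1 to 3 and 84586, 64662 and 45679 in Stat3β TG 1 to 3. Stat3β TG 3 was below WT 1 and WT 3. The log2 difference of the sum was 0.76, and 0.32 without WT 2. Its standard error of 0.50 comes from the pooled SD of the 6 log2 sums, outside the limma fit, and is not comparable with those of single genes. The 4 genes made up 0.0692% of all normalized counts in WT 2 and 0.157% to 0.271% in the other 5 libraries. In sorted bulk samples, a lower share of stefin-expressing cells and less stefin RNA per cell cannot be told apart.

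Cystatin B, the inhibitor of lysosomal cathepsins found in most cells, showed no separation. Cstb was at 1392, 690 and 1144 in WT 1 to 3 and at 1043, 1240 and 1496 in Stat3β TG 1 to 3. WT 1 was second only to Stat3β TG 3, and WT 2 was lowest. The log2 difference was 0.27 with a standard error of 0.28, and -0.02 without WT 2. Against WT 1 alone it was -0.16, and against WT 2 alone 0.85.

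Cystatin C was the steadiest of the 6, with a highest library 1.31 times the lowest, against 2.17 times for Cstb and 3.91 to 9.22 times for the stefin A genes. Cst3 was at 11237, 12034 and 11971 in WT 1 to 3 and at 11457, 11676 and 14675 in Stat3β TG 1 to 3. The 2 lower Stat3β TG libraries lay inside the WT range and Stat3β TG 3 above it. The log2 difference was 0.09 with a standard error of 0.15, and -0.02 without Stat3β TG 3. Stat3β TG 3 was also the library with the most Csf1r (10699) and Lyz2 (63549), markers of monocytes and macrophages. The summed monocyte and macrophage list, 7 of whose 9 tested genes were higher in Stat3β TG, ran from 19470 to 44952 in WT and from 34695 to 92273 in Stat3β TG, and Ms4a7 did not exceed 8.43. Its part in the Cst3 value was not tested.

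The neighbouring copies of the locus were mostly like the 4 genes described. Cstdc5 was at 24637, 5478 and 21915 in WT 1 to 3 and 35540, 24624 and 20249 in Stat3β TG 1 to 3. Cstdc4 was at 21391, 6089 and 20228 and at 34514, 23679 and 19031. Both were lowest in WT 2 and highest in Stat3β TG 1, and their groups overlapped. Cstdc6 was far lower, at 112, 44.7 and 66.1 against 263, 180 and 130, without overlap, and Csta3 was at 172, 86.6 and 165 against 429, 206 and 144. Of the 50-base windows of Cstdc6, 33.7% also occurred in other genes (13.5% at 100 bases), namely the far more abundant Cstdc5 and Stfa1. Its low counts thus depend on how such reads were counted. The shares at 50 bases were 48.9% for Cstdc5, 35.6% for Cstdc4 and 20.4% for Csta2. Csta1 had 1 read in Stat3β TG 1 and 0 in the other libraries, where a count of 0 allows up to 3 reads, or 1.69 to 4.22 normalized counts. It did not pass the filter on low values. Of the 10 genes of the locus 9 were tested, and those 9 had a higher mean log2 level in Stat3β TG, with a median log2 difference of 0.86, and in 4 the groups did not overlap. Over all tested genes 51.4% were higher, and 10.8% had no overlap (5.87% higher in Stat3β TG). The copies lie side by side and several are near-identical in sequence, so this is not a count of independent genes.

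**Figure D2:**
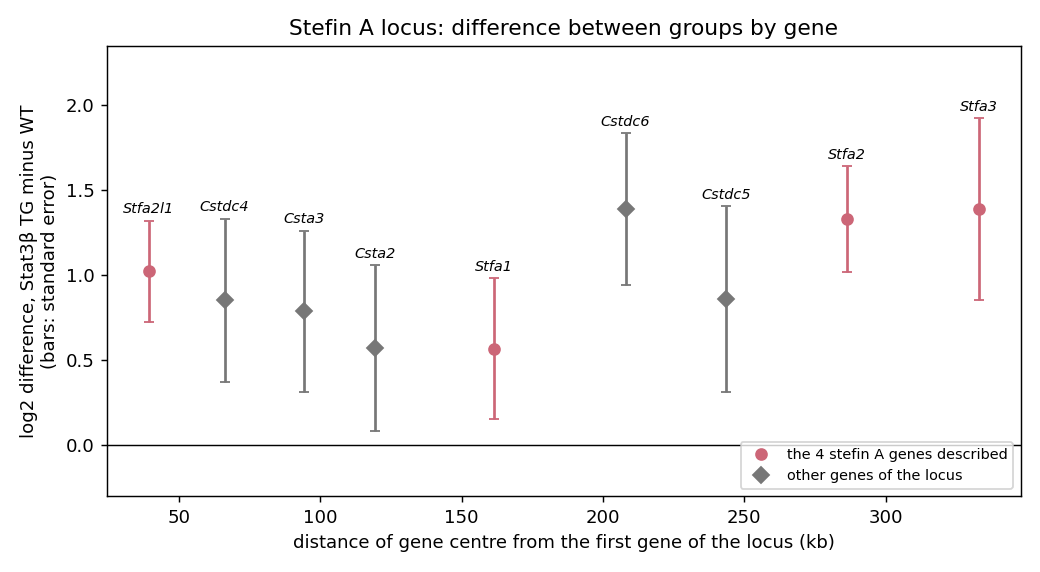
Log2 difference (Stat3β TG minus WT, points) with its standard error (bars) for the 9 tested genes of the stefin A locus, against distance in kb from the first gene; circles are the 4 stefin A genes described, diamonds the other copies. The points run from 0.57 for Stfa1 and Csta2 to 1.39 for Stfa3 and Cstdc6, and Stfa2 and Stfa3 lie at the right end of the locus.

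Csta2 differed from its neighbours in the order of its libraries. It was at 359, 853 and 315 normalized counts in WT 1 to 3 and at 889, 978 and 367 in Stat3β TG 1 to 3, so that WT 2 was the highest WT library instead of the lowest. Its centred log2 profile lay 0.93 (root mean square over the 6 libraries) from that of the stefin A sum, where the other tested locus genes lay at 0.11 to 0.44. Its coding sequence matched that of Cstdc4 at 285 of 294 bases (96.9%). Its annotated promoter window held neither shared run, and whether the runs have a part in the order of the libraries was not tested. Csta2 was singled out after its values were seen.

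The make-up of the locus signal shifted slightly between groups. Stfa1 gave 36.3%, 41.9% and 41.9% of the normalized counts of the 10 genes in WT 1 to 3 and 34.6%, 34.5% and 33.9% in Stat3β TG 1 to 3, without overlap. Stfa3 gave 3.60%, 2.21% and 2.29% in the WT libraries and 4.30%, 3.70% and 4.04% in Stat3β TG. The groups again did not overlap, with the lowest Stat3β TG share 1.03 times the highest WT share. The shares of Stfa2 and Stfa2l1 overlapped because both were high in WT 2 (5.95% and 11.9%). Of the 4 stefin A genes alone, the Stfa3 share overlapped, with 7.04% in WT 1 above 6.54% in Stat3β TG 2. Stfa1 stayed apart there, at 67.6% to 76.4% in WT and 61.1% to 63.8% in Stat3β TG. Relative to Stfa1, Stfa2 was at 0.103, 0.142 and 0.0650 in the WT libraries and at 0.158, 0.200 and 0.149 in Stat3β TG. The lowest Stat3β TG ratio was 1.05 times the highest WT ratio. These shares come from the same contrast that chose the genes and are not corrected for length or shared reads.

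**Figure D3:**
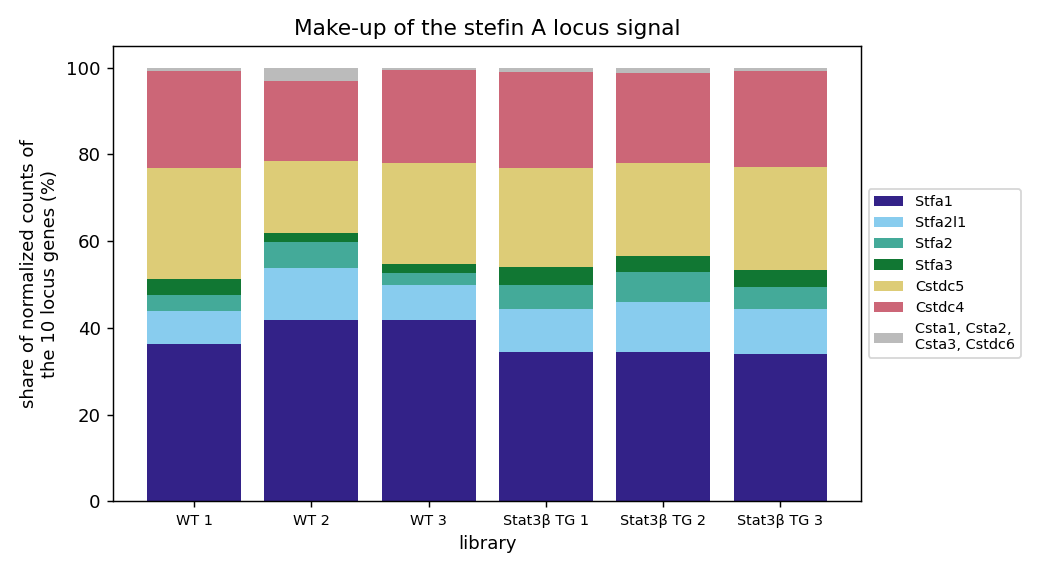
Share (%) of the normalized counts of the 10 stefin A locus genes contributed by each gene, 1 bar per library. The Stfa1 segment covers 33.9% to 34.6% in Stat3β TG and 36.3% to 41.9% in WT, and in WT 2 the Cstdc4 and Cstdc5 segments are the smallest, at 18.5% and 16.6%.

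The genes outside the family whose library profiles were nearest to the stefin A sum, by root mean square difference of centred log2 values, were Ngp (0.105), C230037L18Rik (0.111), Ada (0.114), Plcb2 (0.115) and Pi16 (0.117). The median over 10949 candidate genes was 0.682. Ngp encodes neutrophilic granule protein, itself related in sequence to cystatins, and was at 91302, 39637 and 109577 normalized counts in WT 1 to 3 and 147359, 109322 and 83411 in Stat3β TG 1 to 3. Ada encodes adenosine deaminase and Plcb2 a phospholipase C of leukocytes. Nearest to Cstb were Cd320 (0.0394), Rpa3 (0.0397), G6pc3 (0.0636), Hpf1 (0.0748) and Lockd (0.0813), and nearest to Cst3 were Chaserr (0.0421), Txndc17 (0.0427), Cdk16, Prpsap1 (both 0.0461) and 2310061I04Rik (0.0466). These distances rest on 6 libraries, and each gene was picked for being nearest.

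Part of the neutrophil markers had library profiles close to that of the stefin A genes. Of 14 neutrophil markers, 14 had higher mean log2 levels in Stat3β TG (51.4% of all tested genes did), with a median log2 difference of 1.01, and their summed level ran from 118674 in WT 2 to 411925 in WT and from 405027 to 615233 in Stat3β TG. Per unit of this sum, the 4 stefin A genes were at 0.119, 0.172 and 0.155 in WT 1 to 3 and at 0.137, 0.150 and 0.113 in Stat3β TG 1 to 3, with overlap. Lcn2 (0.215 from the stefin A profile) lay near, while Camp (0.646), Cxcr2 (0.799), Ltf (1.06) and Ly6g (1.20) lay farther off than a gene with the same level in every library would (0.631). Cxcr2 was at 772 in WT 2, its highest WT library. Ltf was at 14473 in WT 1 and 2537 in WT 3, where the stefin A sum was at 48919 and 51854. No neutrophil marker was at 0 in any library. The summed eosinophil and basophil list ran the other way, from 11098 to 51518 in WT and from 7033 to 12159 in Stat3β TG, with 4 of 5 tested genes lower and Fcer1a at 0 in 5 libraries. The part of these lists in the stefin values was not tested.

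The proteases that these inhibitors bind were looked up by a list of 11 papain-like cathepsins and legumain, of which 10 passed the filter on low values and Ctsk (at most 14.1 normalized counts) did not. No gene of the list passed limma adjusted over all genes (0 of 10), and 0 passed by edgeR or DESeq2. At an unadjusted p under 0.05 there was 1 by limma, 0 by edgeR and 1 by DESeq2, where these made up 6.1%, 6.15% and 7.67% of all tested genes. Of the 10, 6 were higher and 4 lower in Stat3β TG, with a median log2 difference of 0.09 against 0.01 over all genes.

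Ctso, a cathepsin of broad expression, was the gene with the smallest p, at 521, 340 and 509 normalized counts in WT 1 to 3 and 647, 724 and 606 in Stat3β TG 1 to 3. Its groups did not overlap, at a log2 difference of 0.55 (standard error 0.23; limma adjusted p = 0.668, unadjusted p = 0.0459). Ctsw, a cathepsin of cytotoxic lymphocytes, was low, at 72.9, 9.48 and 7.04 in the WT libraries and 75.0, 56.6 and 62.9 in Stat3β TG, and WT 1 lay within the Stat3β TG values (limma adjusted p = 0.668). Without WT 1 it was the 1 gene of the list that passed (log2 difference 2.83, limma adjusted p = 0.0411), when 296 genes of the table did. WT 2 and WT 3 were below the filter of 10 normalized counts, so Ctsw entered that fit through the Stat3β TG libraries alone. The library left out was the WT library level with Stat3β TG, so this call is no test of Ctsw. The summed T and NK cell list was at 180 in WT 1, 50.1 and 9.85 in WT 2 and WT 3 and 94.8 to 167 in Stat3β TG, with all 4 tested genes higher in Stat3β TG on the mean log2 scale but Cd3g lower on the mean of counts (14.8 in WT and 13.8 in Stat3β TG). Its part in the Ctsw value was not tested.

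Ctsc, which activates the serine proteases of granules, was at 3486, 2994 and 2278 in WT 1 to 3 and 3724, 3401 and 4950 in Stat3β TG 1 to 3, with overlap (log2 difference 0.47, limma adjusted p = 0.668). Ctsl, an endosomal protease bound by stefins, was highest in WT 2, where the 4 stefin A genes were lowest. It was at 1412, 5143 and 3317 in the WT libraries and 1508, 2978 and 1692 in Stat3β TG (log2 difference -0.55, limma adjusted p = 0.700). Ctsb, the main lysosomal cathepsin B, was about as steady as Cst3, at 18849 to 22949 in WT and 21661 to 22363 in Stat3β TG (log2 difference 0.12, limma adjusted p = 0.788). Ctss, the cathepsin of antigen-presenting cells, ranged from 3092 to 6212 in WT and from 3032 to 8427 in Stat3β TG.

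Of 16 other genes of the cystatin superfamily, 1 passed the filter on low values. This was Cst7, cystatin F, an inhibitor made by leukocytes and kept in their endosomes and lysosomes. Cst7 was at 865, 1190 and 2167 in WT 1 to 3 and 966, 734 and 2189 in Stat3β TG 1 to 3, and WT 3 and Stat3β TG 3 were the high libraries of each group. Its log2 difference of -0.17 (standard error 0.46) did not pass by limma (adjusted p = 0.897). The other 15 did not exceed 4.35 normalized counts, and 10 were at 0 in every library. Among the 15 were the kininogens Kng1 and Kng2, the fetuins Ahsg and Fetub and the cystatins Cst8 to Cst12.

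**Figure D4:**
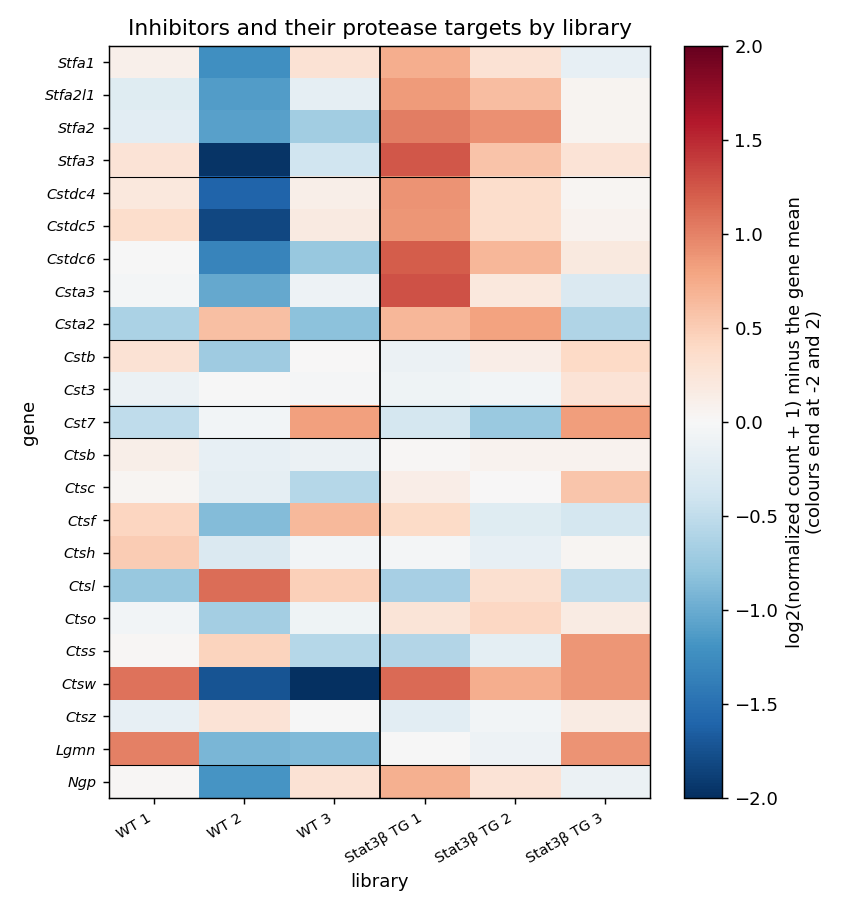
Log2(normalized count + 1) minus the gene's mean over the 6 libraries, for the stefin A locus genes, Cstb and Cst3, Cst7, the 10 tested cathepsins and legumain, and Ngp. The WT 2 column is low for every stefin A locus gene shown except Csta2, while Ctsl is highest there and Cst3 and Ctsb change little between libraries.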

How the data were processed

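Gene-level RNA-seq values of 6 libraries, 3 WT and 3 Stat3β TG, were used, grouped by sample title. The authors deposited gene counts divided by size factors, treated here as a signal. The tools named by the submitters' processing notes are FastQC, STAR and DESeq2, with the build GRCm38 (mm10). Their versions, the counter, the strand setting and the handling of multiply matching reads are not given in the sources used. Values fell on 1 grid per library (100% of 146724 values, tolerance 0.001), from which whole reads were recovered (21809788 to 51934498 per library).

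Symbols and coordinates came from the RefSeq table of GRCm38.p6 (24376 of 24454 IDs matched); exon lengths, coding sequences and shared windows came from GENCODE M21. RefSeq promoter windows matched 5 of the 6 genes, all but Cstb.

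Genes with at least 10 normalized counts in at least 3 libraries were tested (12642), as log2(normalized count + 1), by limma 3.58.1 with trend and robust moderation in R 4.3.3, two-sided, Benjamini-Hochberg adjusted at 0.05. Alternatives were edgeR 4.0.16 (quasi-likelihood) and DESeq2 1.42.0 on recovered reads, other filters, pseudocounts and scalings, a replicate block, and each library left out. The scripts were tested on simulated data. As no label says that replicates came from separate animals, p-values cover the spread between the libraries, which may be technical in part. The Y-linked sum was 11012 in WT 2 against 58.8 in WT 1 and 71.8 in WT 3, so the WT libraries were not all repeats of 1 sample.

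The 6 genes and all lists were chosen with earlier results of these data known. The naming rule took the 6 genes, the tested genes of the cystatin and cathepsin lists, and the 5 nearest profiles (mean of at least 50) to the stefin A sum, Cstb and Cst3. Csta2, the other copies of the locus, Lcn2, Camp, Cxcr2, Ltf and Ly6g were named after their values were seen. So were Csf1r, Lyz2, Mecom, Cd34, Cd3d and Cd3g. Hoxa9, Meis1, Ms4a7, Fcer1a and Cd3e came from the cell type lists and were also outside this rule.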

Additional observations from a re-analysis of the deposited data

How the results depend on the processing

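The log2 differences of Stfa1, Stfa2, Stfa3, Stfa2l1 and the stefin A sum kept their sign under every alternative run. Leaving out each library in turn gave 0.09 to 0.85 for Stfa1, 1.12 to 1.64 for Stfa2, 0.75 to 1.88 for Stfa3, 0.72 to 1.25 for Stfa2l1, 0.32 to 0.99 for the sum, -0.018 to 0.49 for Cstb and -0.022 to 0.16 for Cst3. Cstb turned to -0.018 without WT 2 and Cst3 to -0.022 without Stat3β TG 3. Single WT libraries against Stat3β TG were added after seeing the data. Against WT 1 alone Stfa3 was at 0.42 and Cstb at -0.16, and against WT 2 alone Stfa1 was at 1.52, Stfa3 at 2.66, Stfa2l1 at 1.62, Cstb at 0.85 and the sum at 1.62. DESeq2 called 17 genes of the whole table, against 0 by limma and 0 by edgeR. Leaving out 1 library gave limma counts from 0 to 296, with 296 without WT 1 and 5 without WT 2. On the cystatin and cathepsin lists the count was 0 to 1, with Ctsw called without WT 1, where it passed the filter through Stat3β TG alone. Genes without overlap numbered 5770 without WT 1, 2020 without WT 2, 2023 without WT 3 and 2297 to 2512 without a Stat3β TG library. Such a count rises when a group holds fewer libraries, but the count without WT 1 stood far above the rest. Quantile normalization left 2 of the 6 genes without overlap in place of 3. The median of all genes moved by under 0.1 between scalings, from 0.01 as deposited and with TMM factors to -0.02 with quantiles.

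With a replicate block limma called 0 genes, and the log2 differences of the 6 genes were those of the fit without it. The numbers were not taken to pair the samples: deviations from the group means correlated at 0.14, 0.10 and -0.11 for numbers 1, 2 and 3, and WT 3 and Stat3β TG 2 correlated best with each other, at 0.14.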
